A study of Mus musculus with 13 samples.

Results

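Ptpn14 and 9 other genes of the Hippo pathway were followed across sorted mouse islet cells carrying a knockout label for the thioredoxin reductase gene Txnrd1 and across their controls. The 10 genes were taken by symbol from the 55421 rows of the gene count table and are Ptpn14, Yap1, Wwtr1, Tead1, Tead2, Lats1, Lats2, Amotl2, Nf2 and Vgll4. Each symbol matched 1 row. Ptpn14 had been picked out by its difference between knockout-labelled and control beta cells, so for all 10 genes that difference is a description without a p-value, and the others were added as pathway partners. The RNA-seq data comprise 13 libraries: knockout-labelled beta (n = 3), control beta (n = 4), knockout-labelled non-beta (n = 3) and control non-beta cells (n = 3).

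Knockout-labelled mice were Txnrd1.fl/fl and controls Txnrd1.+/+, and mice of both labels also carried Ins1.Cre/+ and the reporter alleles Rosa26.mTmG/mTmG, on the C57BL/6 strain at 10 to 20 weeks of age. Every group therefore had the Cre recombinase at the insulin gene Ins1, which drives recombination in beta cells, together with a reporter that switches from a red to a green membrane protein where Cre has acted. Islets were cultured overnight in 5.5 mM glucose and dispersed, and live green cells (beta) and red cells (non-beta) were sorted. The non-beta fraction is a mixture of all other islet cells. A cell outside the beta lineage carries the Cre allele but does not normally express it, so the knockout label there describes the animal.

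In the Hippo pathway a chain of protein kinases, in which Nf2 and other membrane proteins activate Lats1 and Lats2, phosphorylates the coactivators YAP (gene Yap1) and TAZ (gene Wwtr1) and keeps them out of the nucleus. In the nucleus YAP and TAZ act through the TEAD transcription factors, and VGLL4 competes with them for TEAD. PTPN14, a cytoplasmic tyrosine phosphatase, binds YAP and holds it in the cytoplasm. Angiomotin-like AMOTL2 binds YAP at junctions, and its gene, like those of Lats2 and Ptpn14, is itself a known target of YAP and TAZ in human cells. In the islet YAP is known to be switched off as cells take the endocrine fate.

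Because TEAD factors bind the letters GGAATG, these were searched on both strands (read as CATTCC on the other) in RefSeq promoter windows of build GRCm38.p6, from 250 bases before to 50 after a gene's start. Of the 10 genes, 9 had a window, and 6 of these 9 held the letters: Ptpn14, Yap1, Wwtr1, Lats2, Amotl2 and Vgll4. Tead2, Lats1 and Nf2 held none, and Tead1 was not searched. Among all 27025 genes with a window 16.6% held a match, and of all 32851 windows 14.7% did, or 9.4% of the 9690 windows with at least 60% G and C. Among the genes with a match, Ptpn14, Yap1, Wwtr1, Lats2 and Vgll4 differed between the islet fractions and Amotl2 between the labels in beta cells. Tead2, Lats1 and Nf2, without a match, also differed between the control fractions, and Nf2 between the labels in beta cells. All 9 genes with a window thus differed in some comparison, so these lists cannot show whether a match sets apart genes that differ. Ptpn14 had been picked out by its difference, and Yap1, Wwtr1 and Tead2 were tested only because of their non-beta levels. Nothing is read from the matches. Each line has 30 bases 5′ to 3′ on the gene's strand, with the match in capitals.
Ptpn14: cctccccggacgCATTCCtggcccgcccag
Yap1: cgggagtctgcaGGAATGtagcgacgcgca
Wwtr1: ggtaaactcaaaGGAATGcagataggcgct
Lats2: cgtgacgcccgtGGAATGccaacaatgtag
Amotl2: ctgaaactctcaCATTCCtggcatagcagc
Vgll4: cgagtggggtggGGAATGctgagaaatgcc
These stretches lie at chr1:189728110-189728139, chr9:8004720-8004749, chr3:57576029-57576058, chr14:57746102-57746131, chr9:102717727-102717756 and chr6:114969268-114969297, in the order shown. Counted from the start, the first base of the match stood at −146 in Ptpn14, −141 in Yap1, −65 in Amotl2, −82 in Vgll4 and 5 in Lats2. The windows of Amotl2, Vgll4 and Lats2 belong to starts inside the annotated genes, so their matches lie within these genes. The Wwtr1 match lies in the windows of 2 neighbouring starts, at −170 and −136. A match is a description of letters and does not show binding.

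The 250 bases before the start of Ptpn14 (chr1:189728018-189728267, + strand) are given because this gene had the largest difference between the labels in beta cells among the members tested there. They are 80.8% G and C, against a median of 52.7% over all windows, and the TEAD match is in capitals.
Ptpn14: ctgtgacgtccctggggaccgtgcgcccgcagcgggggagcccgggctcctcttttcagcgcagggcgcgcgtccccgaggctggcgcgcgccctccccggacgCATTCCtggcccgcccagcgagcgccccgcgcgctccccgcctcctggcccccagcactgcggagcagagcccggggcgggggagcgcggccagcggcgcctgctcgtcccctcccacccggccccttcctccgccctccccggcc
The AP-1 letters TGANTCA, present in 7.81% of all windows, and the letters TGACNNNGC of the antioxidant response element, present in 12.4%, were found in no window of the 9 genes on either strand.

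Library totals ran from 28687466 to 36775079 counts. Ins2, an insulin gene, made up 21.2, 18.5 and 13.6% of counts in the knockout-labelled beta libraries and 20.2 to 22.6% in the control beta libraries. In the non-beta libraries its share was 0.159 to 2.46%. The alpha cell hormone gene Gcg took 0.0295 to 0.390% of counts in the beta libraries and 15.7 to 19.9% in the non-beta libraries, so the fractions matched their labels. Replicate 3 under the knockout label held the highest share from the other fraction on each side, 0.390% Gcg in its beta library and 2.46% Ins2 in its non-beta library. Txnrd1 itself, counted over the whole gene, stood at 553 to 585 CPM (counts scaled to library size) in knockout-labelled beta cells and 276 to 333 CPM in control beta cells. It stood at 208 to 250 CPM in knockout-labelled and 252 to 266 CPM in control non-beta cells. These counts do not check the genotype labels, since which exons the floxed allele removes is not stated there.

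Ptpn14 (ENSMUSG00000026604.17; GRCm38 chr1:189728268-189876695, + strand) was nearly silent in control beta cells and expressed in all 3 other groups. It had 8.71, 5.49 and 4.66 CPM in the 3 knockout-labelled beta libraries, from 267, 204 and 176 reads, against 0.229, 0.295, 0.617 and 0.882 CPM in the 4 control beta libraries, from 7, 9, 17 and 29 reads. Every knockout-labelled beta library stood above every control beta library. The means were 6.29 ± 2.14 CPM (SD, n = 3) under the knockout label and 0.506 ± 0.303 CPM (SD, n = 4) in controls, a difference of 3.67 on the log2 scale (standard error 0.38), or 12.7-fold. It was the sixth highest log2 fold change of the 17525 genes tested in beta cells, and this contrast picked it out. Without knockout-labelled beta replicate 3, the library with the most Gcg, it was 3.85. The summed level of 6 ductal markers moved the same way, at 1439 to 1574 CPM in knockout-labelled and 948 to 1044 CPM in control beta cells, with Cftr at 0 in 6 of the 7 beta libraries and Sox9 at 0 in 3. Most of that sum was the keratin gene Krt7, which averaged 1476 CPM in knockout-labelled and 921 CPM in control beta cells, above its means of 421 and 364 CPM in knockout-labelled and control non-beta cells. Ppy, the hormone gene of islet PP cells, stood at 316, 270 and 895 CPM in knockout-labelled and 99.3, 236, 256 and 162 CPM in control beta libraries, without overlap. The sum of 5 macrophage markers moved the other way, at 48.4 to 53.7 CPM in knockout-labelled and 60.8 to 84.9 CPM in control beta cells. The sum of 6 beta cell markers was 236887, 197500 and 136903 CPM in knockout-labelled and 235061 to 268006 CPM in control beta libraries, with overlap. The part of these markers in the Ptpn14 difference was not tested.

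In non-beta cells no difference in Ptpn14 between the labels was detectable at this depth and number of libraries. It had 3.81, 2.45 and 2.57 CPM in knockout-labelled and 2.58, 2.43 and 4.76 CPM in control non-beta libraries, and the ranges overlapped. The log2 fold change was −0.13 (standard error 0.33, 95% interval −0.88 to 0.62; edgeR adjusted p = 0.999). It took the opposite sign, 0.25, without control non-beta replicate 4. The difference of the 2 label contrasts, beta minus non-beta, was 3.81 on the log2 scale (standard error 0.57), and it stayed between 3.43 and 4.19 over all settings tried.

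Ptpn14 therefore stood in a different order between the fractions under each genotype label. In controls the beta mean of 0.506 CPM was below the non-beta mean of 3.26 ± 1.30 CPM (SD, n = 3), a log2 fold change of −2.70 (standard error 0.43). Under the knockout label the beta mean of 6.29 CPM was above the non-beta mean of 2.94 ± 0.755 CPM (SD, n = 3), a log2 fold change of 1.07 (standard error 0.30). This second difference shrank to 0.75 without knockout-labelled beta replicate 1 and to 0.95 without knockout-labelled non-beta replicate 2, and it was then no longer called at an edgeR adjusted p under 0.05. No p-value is given for these values because they share libraries with the contrast that picked out Ptpn14. Of its exon bases 1.32% overlap Gm26574 on the opposite strand, which had 0 reads in all 3 knockout-labelled beta libraries.

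**Figure D1:**
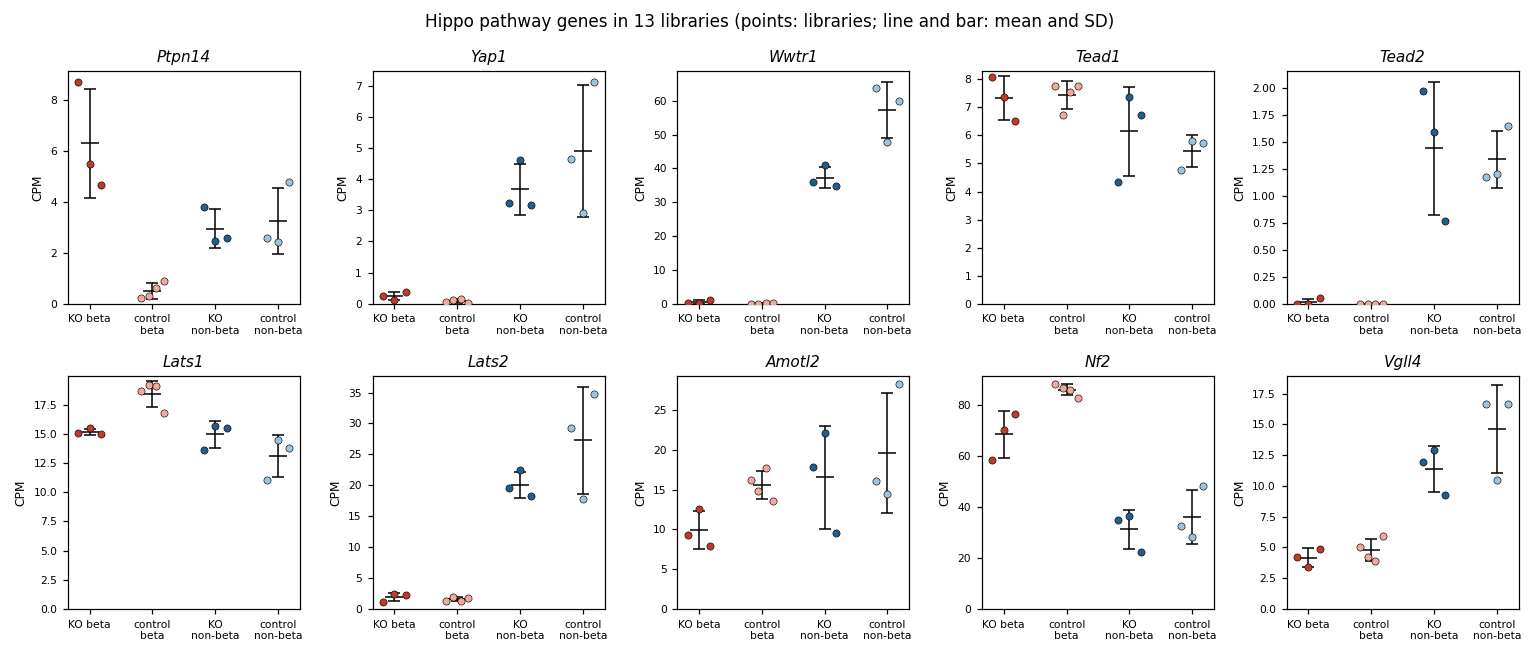
Levels of the 10 genes in CPM (vertical axes, linear, each from 0) in knockout-labelled (KO) beta, control beta, KO non-beta and control non-beta cells; points are libraries, lines and bars the mean and SD. Ptpn14 lies at 4.66 to 8.71 CPM in KO beta cells and at 0.229 to 0.882 CPM in control beta cells, while Yap1, Wwtr1, Tead2 and Lats2 are low in both beta groups.

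The coactivator genes were at the limit of detection in beta cells of either label. Yap1 (chr9:7931999-8004596, − strand) had 8, 4 and 14 reads in the knockout-labelled beta libraries and 2, 4, 4 and 1 reads in the control beta libraries, or 0.247 ± 0.132 CPM (SD, n = 3) and 0.0930 ± 0.0543 CPM (SD, n = 4). Wwtr1 (chr3:57455649-57575910, − strand) had 3, 8 and 41 reads in the knockout-labelled and 0, 2, 10 and 3 reads in the control beta libraries. Neither gene passed the filter on low counts in beta cells, so neither was compared between the labels there. Most of the Wwtr1 reads came from replicate 3 of each label.

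In non-beta cells both coactivator genes were expressed. Yap1 had 3.23, 4.61 and 3.17 CPM in knockout-labelled and 4.66, 2.90 and 7.12 CPM in control non-beta libraries, with overlapping ranges and a log2 fold change of −0.40 (standard error 0.34, 95% interval −1.17 to 0.37; edgeR adjusted p = 0.999). Wwtr1 had 36.0, 40.9 and 34.9 CPM in knockout-labelled and 63.8, 47.9 and 60 CPM in control non-beta libraries, and every knockout-labelled library was below every control library. Such a separation held for 9.66% of the 18908 genes tested, with the knockout-labelled libraries above in 3.9% and below in 5.76%. The log2 fold change of −0.60 (standard error 0.14) had an unadjusted p of 0.00283 in edgeR's quasi-likelihood test and did not pass over all genes (adjusted p = 0.999). The summed level of 5 endothelial markers, all detected in each non-beta library, moved the same way, at 851 to 921 CPM in knockout-labelled and 1076 to 1530 CPM in control non-beta cells. Its part in the Wwtr1 difference was not tested, and in such bulk samples fewer cells of a type and less RNA per cell cannot be told apart.

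Within a label, Yap1 and Wwtr1 were lower in beta than in non-beta cells. Both passed the filter on low counts only through their non-beta levels and could hardly come out other than lower. Their p-values between the fractions therefore add nothing to the levels. Between the control fractions, Wwtr1 fell in beta cells (log2 fold change −8.83, standard error 0.40; adjusted p = 1.51e-07 by edgeR) and so did Yap1 (−5.71, standard error 0.46; adjusted p = 5.74e-06), each lower in 4 of 4 beta libraries. Without control beta replicate 3 the Wwtr1 value was −9.99, and without replicate 4 of both control fractions the Yap1 value was −5.03. Under the knockout label Wwtr1 fell in beta cells (−6.27, standard error 0.55; adjusted p = 6.82e-05) and so did Yap1 (−3.89, standard error 0.41; adjusted p = 0.000155), lower in 3 of 3 beta libraries. Without knockout-labelled beta replicate 3 the Wwtr1 value was −7.82. That library also held the highest endothelial marker sum of the beta libraries, 18.5 CPM against 0.718 to 4.36 CPM in the other 6, and the highest mesenchymal marker sum, 4.77 CPM against 0.0979 to 0.726 CPM. None of the 5 endothelial or 6 mesenchymal markers was at 0 in it, while Cdh5 was at 0 in 4 other beta libraries and Pdgfra in all 6. The part of such cells in its Wwtr1 reads was not tested.

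The TEAD genes behaved differently from each other. Tead1 (chr7:112679318-112906807, + strand) was the TEAD gene of beta cells, with 8.09, 7.37 and 6.52 CPM in knockout-labelled and 7.76, 6.71, 7.55 and 7.75 CPM in control beta libraries. The ranges overlapped, and the log2 fold change was 0.02 (standard error 0.13, 95% interval −0.26 to 0.31). In non-beta cells Tead1 averaged 6.14 ± 1.60 CPM under the knockout label and 5.44 ± 0.578 CPM in controls (SD, n = 3 each; log2 fold change 0.19, 95% interval −0.35 to 0.74; edgeR adjusted p = 0.999). Between the control fractions it was higher in beta cells by 0.43 (standard error 0.14; adjusted p = 0.0283 by edgeR), in 4 of 4 beta libraries. That call ended without control beta replicate 1, 3 or 4 or control non-beta replicate 2 (adjusted p = 0.0620 to 0.116).

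Tead2 (chr7:45215753-45233644, + strand) was found in the non-beta fraction, with 1.97, 1.59 and 0.767 CPM in knockout-labelled and 1.18, 1.20 and 1.65 CPM in control libraries. In beta cells it had 0, 0 and 2 reads under the knockout label and 0 reads in all 4 controls. Control beta cells were thus at least 54.2-fold lower than control non-beta cells, counting 3 reads over the control beta group as the limit that a count of 0 allows. Under the knockout label, 2 reads in beta and 132 in non-beta cells gave a 76.5-fold ratio, non-beta over beta, with an exact 95% counting interval of 20.8 to 638. These intervals and limits cover counting error only. Tead4, a related TEAD gene, likewise had 0 reads in the control beta libraries, at least 47.9-fold lower than in control non-beta cells.

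Vgll4 (chr6:114860628-114969994, − strand), which competes with YAP and TAZ for TEAD, was detected in every library. It had 4.21, 3.39 and 4.90 CPM in knockout-labelled beta and 5.01, 4.26, 3.92 and 5.90 CPM in control beta libraries. The ranges overlapped, and the log2 fold change was −0.15 (95% interval −0.55 to 0.24). Vgll4 was lower in beta than in non-beta cells under either label (−1.47, standard error 0.21; adjusted p = 0.000756 by edgeR under the knockout label, and −1.63, standard error 0.21; adjusted p = 0.000114 in controls). Its log2 fold change between the labels in non-beta cells was −0.34 (95% interval −0.85 to 0.18; adjusted p = 0.999).

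The LATS kinase genes were divided between the fractions. Lats1 (chr10:7681214-7716460, + strand) had 15, 15.5 and 15 CPM in knockout-labelled beta and 18.7, 19.2, 19.1 and 16.8 CPM in control beta libraries. Each knockout-labelled library was below each control library, a pattern held by 18.2% of the 17525 genes tested, and the log2 fold change was −0.23 (standard error 0.09, 95% interval −0.43 to −0.04). In non-beta cells Lats1 averaged 15 ± 1.14 CPM under the knockout label and 13.1 ± 1.79 CPM in controls (SD, n = 3 each; log2 fold change 0.21, 95% interval −0.17 to 0.58; edgeR adjusted p = 0.999). Beta cells were higher than non-beta cells in controls (log2 fold change 0.47, standard error 0.13; adjusted p = 0.0112), and under the knockout label the value was 0.01 (95% interval −0.29 to 0.30; adjusted p = 0.978).

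Lats2 (chr14:57689662-57758388, − strand) was low in beta cells, with 1.21, 2.45 and 2.31 CPM under the knockout label and 1.24, 1.96, 1.38 and 1.73 CPM in controls, and the ranges overlapped (log2 fold change 0.38, 95% interval −0.21 to 0.96). In non-beta cells it had 19.5, 22.4 and 18.2 CPM under the knockout label and 29.2, 17.8 and 34.8 CPM in controls (log2 fold change −0.43, 95% interval −0.97 to 0.12; edgeR adjusted p = 0.999). It fell in beta against non-beta cells (−3.34, standard error 0.26; adjusted p = 4.64e-05 under the knockout label, and −4.13, standard error 0.26; adjusted p = 9.62e-07 in controls). Its count is uncertain, because 42.4% of its exon bases are shared with Gm49361 on the same strand. Gm49361 had 55 to 134 reads in knockout-labelled beta, 64 to 96 in control beta, 343 to 373 in knockout-labelled non-beta and 354 to 795 in control non-beta libraries.

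Amotl2 and Nf2, like Lats1, stood lower in all 3 knockout-labelled beta libraries than in every control beta library, as did 18.2% of the 17525 genes tested. Amotl2 (chr9:102716672-102733418, + strand) had 9.27, 12.5 and 7.87 CPM in knockout-labelled and 16.1, 14.8, 17.8 and 13.6 CPM in control beta libraries, without overlap, a log2 fold change of −0.61 (standard error 0.16). Nf2 (chr11:4765845-4849536, − strand), the merlin gene at the head of the kinase chain, had 58.3, 70.2 and 76.5 CPM in knockout-labelled and 87.9, 86.4, 85.9 and 82.8 CPM in control beta libraries, again without overlap, a log2 fold change of −0.29 (standard error 0.08). In non-beta cells the ranges overlapped for each gene. Amotl2 had 17.9, 22.1 and 9.54 CPM under the knockout label and 16.1, 14.5 and 28.2 CPM in controls (log2 fold change −0.23, 95% interval −1.03 to 0.57; edgeR adjusted p = 0.999). Nf2 had 35.0, 36.4 and 22.5 CPM under the knockout label and 32.4, 28.1 and 48.1 CPM in controls (log2 fold change −0.19, 95% interval −0.77 to 0.38; adjusted p = 0.999).

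Between the fractions the pair differed from each other. Nf2 was higher in beta than in non-beta cells by 1.11 (standard error 0.20; adjusted p = 0.00227 by edgeR) under the knockout label and by 1.22 (standard error 0.17; adjusted p = 0.000212) in controls. Amotl2 did not pass under either label, with −0.76 (95% interval −1.47 to −0.05; adjusted p = 0.0820) under the knockout label and −0.35 (95% interval −0.86 to 0.15; adjusted p = 0.214) in controls. The first value passed with the replicate block (−0.70, edgeR adjusted p = 0.0219), without a filter (−0.75, adjusted p = 0.0447), with DESeq2 (−0.77, adjusted p = 0.0295) and without knockout-labelled non-beta replicate 3 (−1.05, edgeR adjusted p = 0.00416). The control value took the opposite sign, 0.01, without control non-beta replicate 4.

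Counted together in beta cells, 7 of the 10 genes passed the filter on low counts, and edgeR called 1 of them higher (Ptpn14) and 2 lower (Amotl2 and Nf2) under the knockout label. Over all 17525 genes tested there 20.1% were called, 10.1% higher and 9.97% lower. Groups did not overlap for 1 member above (Ptpn14) and 3 below (Lats1, Amotl2, Nf2), where 30.9% of all genes did not overlap, 12.7% above and 18.2% below. Ptpn14 had entered through this contrast, so nothing is read from these counts. The Amotl2 and Nf2 calls both ended when knockout-labelled beta replicate 1 or control beta replicate 1, 2 or 3 was left out, and in a fit that shared the spread over all 13 libraries. In non-beta cells edgeR called 0 of the 10 genes, with 1 (Wwtr1) at an unadjusted p under 0.05, and DESeq2 called 0. There edgeR called 0% of all 18908 genes, with 821 at an unadjusted p under 0.05, and DESeq2 called 25 genes.

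Between the fractions the counts were higher. In controls 3 of the 10 genes were higher in beta cells (Tead1, Lats1, Nf2) and 6 lower (Ptpn14, Yap1, Wwtr1, Tead2, Lats2, Vgll4), where 53.5% of all 19014 genes tested were called, 24.8% higher and 28.6% lower. Their median log2 fold change was −2.17, also with Tead2 at its bound, against −0.02 over all genes. Under the knockout label 2 were higher (Ptpn14, Nf2) and 5 lower (Yap1, Wwtr1, Tead2, Lats2, Vgll4), where 42.6% of 18775 genes were called, 19.1% higher and 23.5% lower, and the median was −1.11 against −0.02. Ptpn14 had been picked out with the beta libraries used here. Yap1, Wwtr1 and Tead2 passed the filter only through their non-beta levels and could hardly come out other than lower. Nothing is therefore read from the counts and medians between the fractions. For the difference of the label contrast between fractions 1 of the 10 genes was called, Ptpn14, where 0.928% of 19942 genes were called, 0.612% higher and 0.316% lower. That difference contains the contrast that picked out Ptpn14, so nothing is read from this count. Under the knockout label every beta library was above every non-beta library for Ptpn14 and Nf2, as for 26.7% of all genes.

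**Figure D2:**
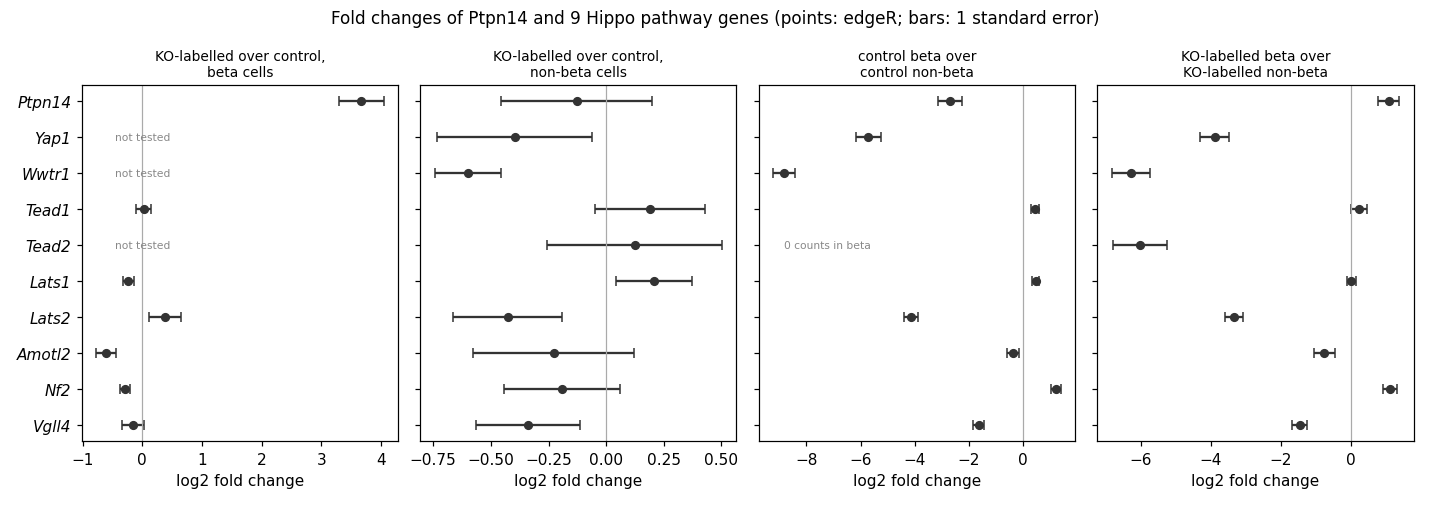
The log2 fold changes of the 10 genes (horizontal axes, a separate scale in each panel) for knockout-labelled (KO) over control in beta and in non-beta cells and for beta over non-beta cells in controls and under the KO label; points are edgeR estimates and bars 1 standard error. Ptpn14 lies at 3.67 in the first panel and at −0.13 in the second, and Wwtr1 at −8.83 and −6.27 in the panels that compare the fractions.

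Per length of transcript, in the deposited RPKM (reads scaled to gene length and library size), Nf2 ranked first of the 10 genes in beta cells, with 10.2 ± 1.86 RPKM under the knockout label and 11.8 ± 0.260 RPKM in controls (SD, n = 3 and n = 4). Lats1 and Amotl2 followed with overlapping ranges, at 2.11 and 1.59 RPKM under the knockout label and 2.38 and 2.34 RPKM in controls. Ptpn14 ranked sixth under the knockout label, at 0.471 ± 0.137 RPKM, where it overlapped Tead1 (0.546 ± 0.0318 RPKM) and stood apart from Lats2 (0.292 ± 0.108 RPKM). In controls it ranked seventh, at 0.0357 ± 0.0216 RPKM, overlapping Wwtr1 (0.0260 ± 0.0322 RPKM). In non-beta cells Wwtr1 ranked first, with 7.96 ± 0.824 RPKM under the knockout label and 12.5 ± 1.64 RPKM in controls, ahead of Nf2 with 4.67 ± 1.16 and 5.54 ± 1.62 RPKM. Ptpn14 was the lowest of the 10 there, at 0.223 ± 0.0529 RPKM under the knockout label and 0.254 ± 0.102 RPKM in controls, in a range that overlapped Tead2.

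Across the 13 libraries Wwtr1 varied with Yap1, Tead2 and Lats2 (Pearson r of log2 CPM 0.977, 0.977 and 0.976) and with Vgll4 (0.913). It varied inversely with Nf2 (−0.886), Lats1 (−0.722) and Tead1 (−0.716). Amotl2 (0.368) and Ptpn14 (0.456) had the weakest correlations with Wwtr1, and the r of Ptpn14 with the 9 other genes lay between −0.699 (Lats1) and 0.476 (Yap1). These correlations describe 13 libraries that fall into sorted fractions, and no test is attached to them.

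The genes with a profile most like Ptpn14, by Pearson r of log2 CPM over the 13 libraries among 19941 genes, were Card19 (0.972), Hspb8 (0.953), Lrrc1 (0.942), S100a6 (0.938) and Gpat3 (0.926). In each of the 5, all control beta libraries lay below all libraries of the 3 other groups. Ptpn14 itself was lowest in control beta cells, so the choice of these genes favours this pattern and nothing is read from it. Hspb8, a small heat shock protein gene, had 35.7 to 46.8 CPM in knockout-labelled beta, 8.19 to 15.9 CPM in control beta, 28.1 to 35.8 CPM in knockout-labelled non-beta and 26.8 to 40.9 CPM in control non-beta libraries. Card19, which encodes a protein with a caspase recruitment domain, had 48.4 to 60.7 CPM in knockout-labelled beta, 29.4 to 36.4 CPM in control beta, 47.0 to 53.4 CPM in knockout-labelled non-beta and 43.8 to 48.1 CPM in control non-beta libraries. S100a6, a calcium-binding protein gene, had 7.07 to 13.8 CPM in knockout-labelled and 1.80 to 5.66 CPM in control beta libraries. Lrrc1, a leucine-rich repeat protein gene, had 20.8 to 22.5 CPM in knockout-labelled and 15.3 to 17.8 CPM in control beta libraries. Gpat3, a glycerol-phosphate acyltransferase gene, had 2.94 to 3.69 CPM in knockout-labelled and 0.655 to 1.45 CPM in control beta libraries, and 37.4% of its exon bases are shared with other genes, so its count is uncertain.

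**Figure D3:**
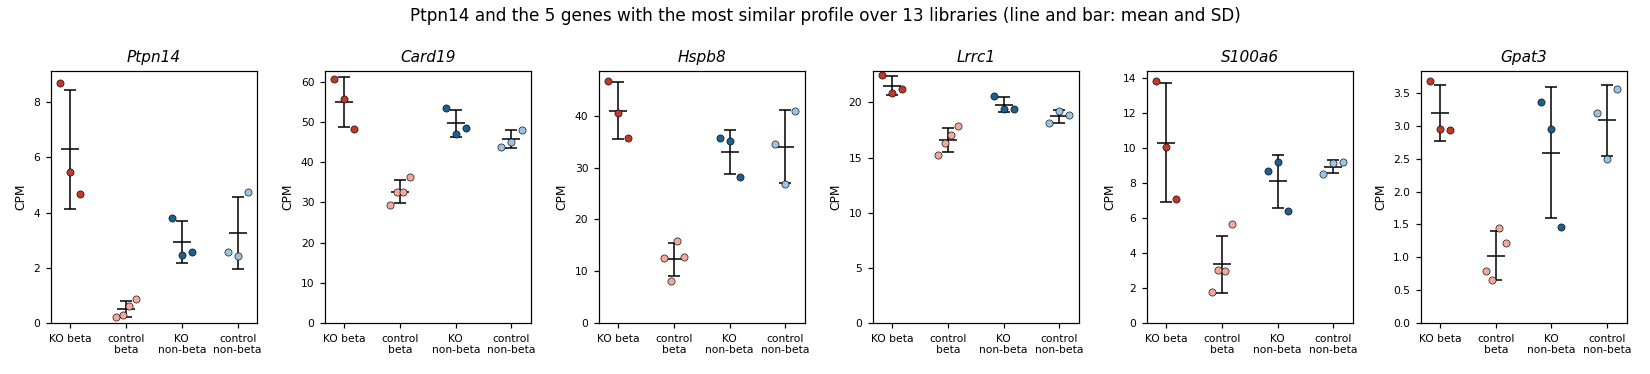
Ptpn14 and the 5 genes with the highest correlation to it, in CPM (vertical axes, linear, each from 0), for the 4 groups in the order knockout-labelled (KO) beta, control beta, KO non-beta and control non-beta; points are libraries, lines and bars the mean and SD. In every panel the 4 control beta libraries are the lowest, for Hspb8 at 8.19 to 15.9 CPM, a pattern that the choice of genes favours.

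The remaining Hippo pathway was represented by 56 further genes in 6 lists, of which 39 passed the filter in beta cells. Between knockout-labelled and control beta cells 3 were higher and 7 lower in edgeR's quasi-likelihood test with adjustment over all genes, where 10.1% of all genes were higher and 9.97% lower. The median log2 fold change was −0.003 for the 39 genes and 0.007 for all genes. None of 5 core genes (Stk3, Stk4, Sav1, Mob1a, Mob1b) and none of 4 other phosphatases with a FERM domain (Ptpn3, Ptpn4, Ptpn13, Ptpn21, the relatives of Ptpn14) was called, with 0 at an unadjusted p under 0.05 and 0 called by DESeq2 in either list. Their log2 fold changes lay between −0.22 and 0.20 in the core and between −0.14 and 0.21 in the phosphatases.

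Among 12 tested upstream genes edgeR called 3 lower and 0 higher in knockout-labelled beta cells, against 9.97% of all genes lower and 10.1% higher. DESeq2 called 4 of the 12, and 4049 of all 17515 genes. The largest log2 fold change of this list, 1.52, was upward and not called by edgeR. Wwc2 had 1.11, 0.915 and 1.06 CPM in knockout-labelled and 0.0328, 0.295, 0.436 and 0.699 CPM in control beta libraries. Such separation upward held for 12.7% of all genes. Taok2, a kinase that can activate the core kinases, had 53.4, 59.1 and 66.7 CPM in knockout-labelled and 89.3, 98.9, 87.4 and 102 CPM in control beta libraries, without overlap (log2 fold change −0.62, standard error 0.08; adjusted p = 0.000675 by edgeR). The polarity scaffold genes Patj (−0.37, adjusted p = 0.0121) and Scrib (−0.32, adjusted p = 0.0364) were also lower in all 3 knockout-labelled libraries. Among 7 tested genes that restrain the LATS and core kinases edgeR called 2 lower and 0 higher, against 9.97% and 10.1% of all genes, and DESeq2 called 3. Wtip, a LIM protein gene of the Ajuba family, fell by 0.86 (standard error 0.16; adjusted p = 0.00413), with 2.35, 3.04 and 2.99 CPM in knockout-labelled and 5.31, 4.75, 5.99 and 4.86 CPM in control beta libraries. Strn3, a striatin of the STRIPAK phosphatase complex, fell by 0.26 (adjusted p = 0.0302), lower in all 3 libraries. The Scrib and Strn3 calls ended with a replicate block (adjusted p = 0.05 and 0.0558). The Scrib call also ended without knockout-labelled beta replicate 1 or any control beta library, and the Strn3 call without knockout-labelled beta replicate 1 or 2 or control beta replicate 1 or 4.

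Known YAP and TAZ targets, a list taken from human cells, split in both directions in beta cells: 3 of 11 tested were higher and 2 lower, against 10.1% and 9.97% of all genes, and the other 8 of the 19 were too low to test. Dock5, a guanine exchange factor gene, had 22.6, 24.5 and 27.6 CPM in knockout-labelled and 17.6, 18.5, 18.6 and 17.5 CPM in control beta libraries, without overlap (log2 fold change 0.51, standard error 0.08; adjusted p = 0.00200 by edgeR). Gadd45a, a growth-arrest gene also induced by stress and p53, had 69.7, 68.8 and 54.9 CPM in knockout-labelled and 48.3, 47.2, 53.6 and 42.8 CPM in control beta libraries (log2 fold change 0.47; adjusted p = 0.0152). Of its exon bases 19.1% are shared with an antisense gene. Asap1, an Arf GTPase activator gene, was also higher (0.38; adjusted p = 0.0137), in 3 of 3 libraries. Nuak2, a kinase gene, had 7.63, 9.76 and 12.4 CPM in knockout-labelled and 15.7, 18.3, 16.6 and 17.8 CPM in control beta libraries (log2 fold change −0.74, standard error 0.13; adjusted p = 0.00385). Arhgef17, a guanine exchange factor gene, had 106, 152 and 133 CPM in knockout-labelled and 183, 197, 186 and 191 CPM in control beta libraries (log2 fold change −0.49, standard error 0.10; adjusted p = 0.00653). The Gadd45a call ended without knockout-labelled beta replicate 1 or 2 and the Asap1 call without replicate 1. In 1 fit over all 13 libraries the calls of Taok2, Patj, Scrib, Strn3, Dock5 and Arhgef17 ended (adjusted p = 0.0945 to 0.65).

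**Figure D4:**
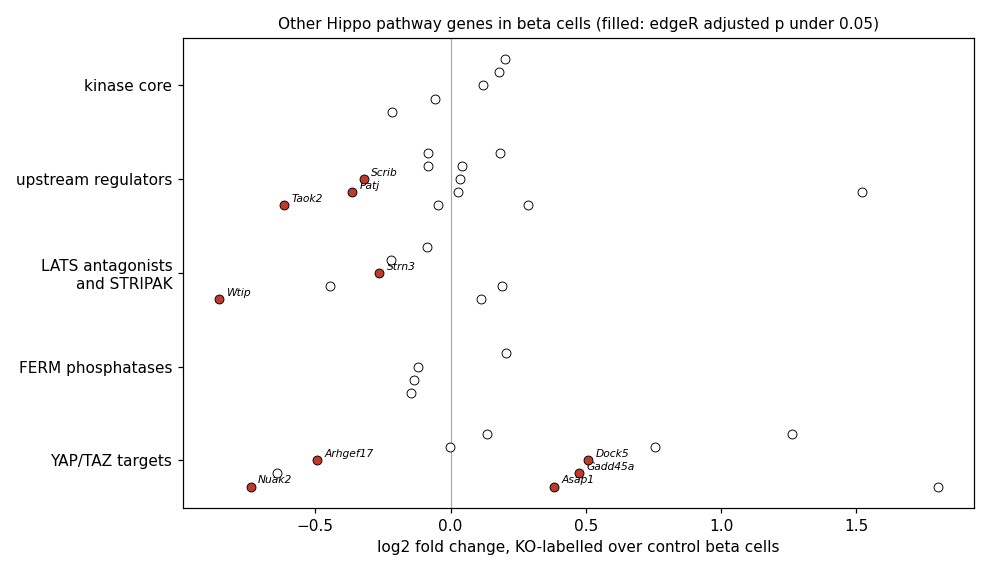
The log2 fold change of the tested genes of the pathway lists in knockout-labelled over control beta cells (horizontal axis), by list (vertical axis); each point is a gene and filled points have an edgeR adjusted p under 0.05. Filled points lie on both sides of 0, from −0.86 (Wtip) to 0.51 (Dock5), and the core kinase and phosphatase lists hold none.

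In non-beta cells edgeR called 0 of the 52 pathway genes tested between the labels, with 4 at an unadjusted p under 0.05 and 0 called by DESeq2. Over all 18908 genes tested there edgeR called 0, with 821 at an unadjusted p under 0.05, and DESeq2 called 25. For the difference of the label contrast between fractions edgeR called 0 of 53, with 10 at an unadjusted p under 0.05, and DESeq2 called 2. Over all 19942 genes edgeR called 185 (0.928%), with 2454 at an unadjusted p under 0.05, and DESeq2 called 557. Nothing is read from these list counts. The pathway gene closest to a call for this difference was Asap1, named after its values were seen, at 0.64 (standard error 0.14; adjusted p = 0.0595 by edgeR).

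Most of the YAP and TAZ targets that were tested were lower in beta than in non-beta cells. In controls 13 of 18 fell and 2 rose, where 28.6% of all genes fell and 24.8% rose, with a median log2 fold change of −4.37 against −0.02. Under the knockout label the counts were again 13 and 2 of 18, where 23.5% of all genes fell and 19.1% rose, with a median of −4.06. Only 11 of the 19 listed targets passed the filter on low counts among beta libraries alone. The others tested here passed through their non-beta levels, so they could hardly come out other than lower. Nothing is therefore read from these counts and medians. Ccn2, a matrix-associated growth factor gene and a standard YAP readout, had 0, 0.0269 and 0.159 CPM in knockout-labelled beta, 0, 0.0327, 0.145 and 0 CPM in control beta, 16.0, 13.7 and 35.7 CPM in knockout-labelled non-beta and 21.9, 39.8 and 14.8 CPM in control non-beta libraries. It was lower in beta cells by −8.30 (standard error 0.69; adjusted p = 5.40e-05 by edgeR) under the knockout label and −9.16 (standard error 0.60; adjusted p = 1.36e-06) in controls. Ccn2 passed the filter only through its non-beta levels, so these p-values add nothing to the levels. The log2 fold changes were −10.19 without knockout-labelled beta replicate 3 and −10.80 without control beta replicate 3. Of its exon bases 23.2% are shared with an antisense gene.

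Igfbp3, a carrier of insulin-like growth factors, and Axl, a receptor tyrosine kinase gene, followed the same split. Igfbp3 averaged 4.84 CPM in knockout-labelled beta and 521 CPM in knockout-labelled non-beta cells (log2 fold change −6.74; edgeR adjusted p = 0.00272). In controls it averaged 1.44 CPM in beta and 603 CPM in non-beta cells (−8.78; adjusted p = 5.32e-06). The Igfbp3 values were −10.08 without knockout-labelled beta replicate 3 and −10.13 without control beta replicate 3. Axl averaged 0.125 CPM in control beta and 54.5 CPM in control non-beta cells (−8.76; adjusted p = 7.08e-08). With 15 reads over the control beta libraries, Axl also passed the filter only through its non-beta levels, so its p-value adds nothing to the levels. Ankrd1, a muscle ankyrin repeat gene and another standard readout, had 3 reads in knockout-labelled beta and 270 in knockout-labelled non-beta cells, a ratio of 104 with an exact 95% counting interval of 35.3 to 509, non-beta over beta. All 3 beta reads were in replicate 3, without which the fitted log2 fold change went to −9.55, against −6.54 with it, and with 0 reads left it is no bound. In controls Ankrd1 had 1 read over the 4 beta libraries and 88, 1 and 46 reads in the non-beta libraries. Dock5 (1.83 under the knockout label, 0.98 in controls) and Arhgef17 (1.24 and 1.88) were the 2 targets higher in beta cells, with adjusted p-values of 0.000170 and 0.00374 for Dock5 and 0.00160 and 3.70e-05 for Arhgef17.

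The other lists were divided. Of the FERM phosphatases Ptpn21, the closest relative of Ptpn14, was higher in beta cells under both labels (0.77, adjusted p = 0.00432 under the knockout label; 0.78, adjusted p = 0.00207 in controls, edgeR). Ptpn13 was lower (−0.87, adjusted p = 0.0125; −0.64, adjusted p = 0.00304), and Ptpn4 was higher in controls (0.63, adjusted p = 0.00382). Of the 5 core genes Stk3 was lower in beta cells under both labels (−0.43, adjusted p = 0.0494; −0.75, adjusted p = 0.000712), and in controls Mob1a (−0.53) and Sav1 (−0.48) were lower and Mob1b higher (0.46). The Sav1 call ended on leaving out any of 5 of the 7 control libraries (adjusted p = 0.0504 to 0.0729, edgeR) and the Mob1b call without control non-beta replicate 2 (adjusted p = 0.0559). The Stk3 call under the knockout label ended on leaving out any of 5 of the 6 libraries. Of 15 upstream genes 7 were lower in beta cells under either label, where 23.5% of all genes were lower under the knockout label and 28.6% in controls, and Pard3, a polarity gene, was higher (1.39, adjusted p = 0.000328 under the knockout label; 1.30, adjusted p = 3.48e-05 in controls), with Taok2 (1.02) and Patj (0.45) also higher in controls. Fat4, a giant cadherin gene, had 0 reads in knockout-labelled beta cells, at least 46.4-fold lower than in knockout-labelled non-beta cells, and its partner cadherin gene Dchs1 had 1 read in control beta and 308 in control non-beta cells, a ratio of 363 with an exact 95% counting interval of 64.6 to 14370, non-beta over beta. Wwc2, a paralogue of the scaffold gene Wwc1, had a log2 fold change of −5.29 in controls. Of 8 genes that restrain the kinases 2 were lower and 0 higher under the knockout label, against 23.5% and 19.1% of all genes, and 3 lower and 1 higher in controls, against 28.6% and 24.8%. Among them Wtip was lower (−2.33, adjusted p = 5.77e-05; −1.53, adjusted p = 0.000133), and Strn was higher (0.45) in controls, a call that ended on leaving out replicate 2 or replicate 4 of the control beta libraries (edgeR adjusted p = 0.0510 and 0.0516). Ajuba had 1 read in knockout-labelled beta and 208 in knockout-labelled non-beta cells. Over all 6 lists 4 of 51 tested genes were higher and 25 lower in beta cells under the knockout label, and 9 of 51 higher and 28 lower in controls. The shares of all genes were 19.1% higher and 23.5% lower under the knockout label, and 24.8% higher and 28.6% lower in controls. Only 39 of the 56 listed genes passed the filter on low counts among beta libraries alone. The others tested here passed through their non-beta levels and could hardly come out other than lower, so nothing is read from these counts.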

How the data were processed

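The deposited gene table holds raw counts per gene, per the file headers, and the authors' RPKM values per gene and library, normalised by length and library size. The authors' deposited comparison tables give log2 fold changes, p-values and false discovery rates, per the file headers, and were not used for any value here. Per the submitters' processing notes, FastQC, STAR and edgeR were used with build GRCm38.p6; versions, the counting program, its strand setting and its treatment of reads over several genes are not given in the sources used here. Of the columns of per-sample values, 52 were not used.

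The main test, run under R 4.3.3, was that of edgeR 4.0.16, which draws on limma 3.58.1: filterByExpr, TMM scaling, the quasi-likelihood fit on the libraries of each comparison, or on all 13 for the difference between fractions, and Benjamini-Hochberg adjustment over all genes tested, called under 0.05. CPM use TMM sizes over all 13 libraries. Standard errors were derived from the F statistic. DESeq2 1.42.0, RLE scaling, no filter, a stricter filter (at least 1 CPM in every library of a group), 1 fit over 13 libraries, a replicate block and the removal of each library were alternatives. The scripts were tested on simulated data with 200 changed genes.

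The 10 genes and the lists were chosen with earlier results of these data known. Named were the 10 genes, up to 3 genes per list, direction and comparison with the largest change among those called whose mean reached 1 CPM in either group, and the 5 genes most correlated with Ptpn14 (prior count 2). Some of these genes are given by counts only, and 1 result is not reported here. Positions and exon overlaps are from GENCODE M21 (GRCm38), where 54673 of the 55421 identifiers matched with version. Replicate numbers came from the sample titles. Deviations from the group means of knockout-labelled and control beta libraries with the same number correlated over 19942 genes (r = 0.132, 0.122 and 0.207), although replicate 2 correlated best with another number. In the comparisons of fractions each library correlated best with its own number. The labels do not say what a number marks. The main test used no pairing in any comparison, and the replicate block was an alternative in each. The labels do not say whether replicates came from separate animals, so p-values measure the spread between these libraries, which may be technical. The facility numbers in the labels set replicate 4 of both control fractions apart from the other libraries. Without both, the Ptpn14 log2 fold change between control fractions was −2.74.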

Additional observations from a re-analysis of the deposited data

Results flagged for a closer look

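The label contrast of Ptpn14 differed between the fractions by 3.81 on the log2 scale, 3.67 in beta and −0.13 in non-beta cells. It contains the contrast that picked out the gene, so it carries no p-value. In 5 of 38 genes screened 1 control beta library lay far from the other 3. Chance flags about 1 in 20 groups, a rate that does not hold for the 3 genes below with 1 read in all, so no excess is read from the count. Igfbp3 reached 4.14 CPM in control beta replicate 3, against 0.295 to 0.688 CPM in the others. Ptpn13 was at 6.62 CPM in replicate 1, against 8.68 to 9.04 CPM. Ajuba (0.0363 CPM, replicate 3), Ankrd1 (0.0304 CPM, replicate 4) and Dchs1 (0.0328 CPM, replicate 1) each had 1 read in a single control beta library and 0 in the others, which flags a gene by construction.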

How the results depend on the processing

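Ptpn14 kept its direction under every setting tried in 4 of the 5 comparisons: its log2 fold change ran from 3.34 to 4.09 between the labels in beta cells, from −3.13 to −2.31 between the control fractions, from 0.75 to 1.30 between the knockout-labelled fractions and from 3.43 to 4.19 for the difference. In non-beta cells it ran from −0.36 to 0.25. Between the labels in beta cells the higher pathway genes numbered 5 without a filter and 1 to 5 on leaving out 1 library. In 1 fit over 13 libraries 0 of the 10 genes and 2 pathway genes were lower, and on leaving out 1 library 0 to 3 of the 10. Over all genes the calls there numbered 3525, against 1673 in that fit and 1991, 2343 and 2218 without knockout-labelled beta replicate 1, replicate 2 or control beta replicate 2. For the difference 185 genes were called, 557 by DESeq2, 49 with the replicate block and 62 to 289 on leaving out 1 library; pathway genes higher numbered 2 by DESeq2 and 0 to 1 on leaving out 1 library. Higher members between the knockout-labelled fractions numbered 1 to 2.

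Some signs turned. With the replicate block, the label contrast in non-beta cells was 0.021 for Ptpn14, 0.073 for Yap1 and −0.062 for Tead2. Without replicate 4 of both control fractions, an alternative added after seeing the data, Amotl2 stood at 0.074 between them. Between the knockout-labelled fractions Lats1 was −0.0070 with DESeq2 and with RLE factors and −0.013 with the stricter filter. Without replicate 3 of both knockout-labelled fractions, also added later, the difference was −0.43 for Tead2, against 2.46 with all libraries on 2 reads in beta cells, and −0.051 for Vgll4. On leaving out 1 library, or the pairs just named, the ranges that crossed 0 were, between the labels in beta cells, Tead1 (−0.077 to 0.11); in non-beta cells Tead2 (−0.17 to 0.43), Amotl2 (−0.50 to 0.13), Ptpn14 (−0.36 to 0.25) and Nf2 (−0.35 to 0.068); between fractions Amotl2 (−0.53 to 0.074, controls) and Lats1 (−0.070 to 0.046, knockout label); and for the difference Tead2 (−0.43 to 2.97), Nf2 (−0.40 to 0.067), Vgll4 (−0.051 to 0.38) and Tead1 (−0.35 to 0.0093). The causes were not tested.

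With the replicate block Ptpn14 was 4.05 between the labels in beta cells, and the block ended the calls of Scrib and Strn3 among the genes named there. In the other comparisons the correlations between libraries of the same number ran from −0.06 to 0.263, and in the comparisons of fractions each library correlated best with its own number. Between the fractions the block ended, among the genes named, the calls of Tead1 in controls and Stk3 under the knockout label. It also called Amotl2 lower under the knockout label. At these depths genes such as Yap1 and Wwtr1 in beta cells rest on a few reads.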
